A study of Mus musculus with 84 samples.

Results

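The step from pre-granulocyte-monocyte progenitors (pGM) to granulocyte-monocyte progenitors (GMP) was measured in newborn control mice by RNA sequencing of sorted cells. The members are 7 of the 84 libraries of the series, 4 of GMP and 3 of pGM, chosen by their labels alone. Both groups are labelled wild type, control and without doxycycline, and their tissue is newborn liver taken at birth (P0). The series as a whole harvested blood progenitors from newborn and adult mice to follow leukemia driven by MLL-ENL, a fusion oncogene that the series places under tetracycline control. The submitters' note on every library used here is fetal induction, and the controls carry that note as well. A further 2 pairs of groups are set beside the newborn controls below. One pair is GMP and pGM of P0 neonatal liver from mice labelled MLL-ENL without doxycycline, with 4 libraries each. The other is GMP and pGM of bone marrow from 10 week controls labelled wild type without doxycycline, also with 4 libraries each. HPC, labelled as committed progenitors of P0 neonatal liver, are given in places as another population, with 4 control libraries.

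GMP follow pGM on the path from multipotent progenitors to neutrophils and monocytes. Along it C/EBP factors and PU.1 turn on the granule proteins, and the repressor Gfi1 is needed for neutrophil fate. Granule proteins are made in waves: primary (azurophil) granules hold myeloperoxidase and serine proteases, and secondary and tertiary granules hold lactoferrin, antimicrobial peptides and gelatinase. The GMP gate of the mouse is also known to hold precursors of basophils, mast cells and eosinophils, and in the newborn the liver is still a main site of blood formation.

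The 7 libraries held 12.68 to 15.92 M counts, against 7.62 to 29.47 M over all 84. Levels are given as CPM after TMM scaling, so they depend on transcript length and are compared between libraries, not between genes. Numbers in the identifiers name the libraries here, as GMP 2, 3, 4 and 5 and pGM 2, 3 and 5. GMP 2 stood closest to the pGM libraries, with a correlation of log2 CPM of 0.886 to 0.920 with them and of 0.958 to 0.962 with the other GMP. The values of the granule genes named for it are also given without GMP 2. Libraries with the same number went together. The female transcript Xist and the male transcript Ddx3y stood at 37.8 and 30.2 CPM in GMP 2 and at 52.5 and 46.1 CPM in pGM 2, so both libraries with number 2 hold cells of both sexes. Numbers 3 and 5 held almost no Xist in either population. Library 4, sequenced here as GMP, also held both transcripts, at 20.5 CPM of Xist and 31.5 CPM of Ddx3y. The labels do not say how many animals stand behind a number.

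The labels were checked against defining markers. The summed level of 11 neutrophil lineage markers was 48111 to 111419.9 CPM in GMP and 10974 to 18681 CPM in pGM. Monocyte markers (7 genes, among them Csf1r and Ccr2) summed to 665 to 1446 CPM in GMP and 824 to 1258 CPM in pGM, which overlap. The labels give no sorting gates. By the usual gates GMP are high and pGM low in CD16/32, the receptors encoded by Fcgr3 and Fcgr2b, so a difference in these genes is what such a sort sets. Fcgr3 stood at 744, 1037, 632 and 841 CPM in GMP 2, 3, 4 and 5, against 78.3, 77.6 and 103 CPM in pGM 2, 3 and 5. Fcgr2b stood at 121 to 164 CPM in GMP and 28.7 to 44.4 CPM in pGM. Neither gene overlapped between the groups. Cd34, a progenitor antigen, was lower in GMP, at 345 to 607 CPM against 756 to 962 CPM in pGM. Kit and Cd48 overlapped between the groups and did not pass the test. Ly6a (Sca-1), Eng (CD105) and Itga2b (CD41) missed it in the fit without pairs, with adjusted p = 0.082, 0.11 and 0.21. With the replicate block (number as a term of the fit) they passed at 0.0011, 0.02 and 0.0017, Ly6a and Eng lower in GMP and Itga2b higher. Slamf1 (CD150) reached at most 0.955 CPM in GMP and 1.36 CPM in pGM.

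Of 14899 genes tested, 2076 (13.9%) passed a false discovery rate (FDR) of 0.05 between GMP and pGM by edgeR's quasi-likelihood test. There were 958 genes higher in GMP (6.43%) and 1118 lower (7.50%), and the median log2 fold change of all genes tested was -0.03. Among the called genes 106 were more than 32-fold higher and 167 more than 32-fold lower in GMP. Leaving out pGM 3 lowered the count to 1355 (614 higher and 741 lower), and leaving out GMP 2 gave 2064. In bulk libraries, fewer cells of a type and less RNA per cell cannot be told apart.

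**Figure D1:**
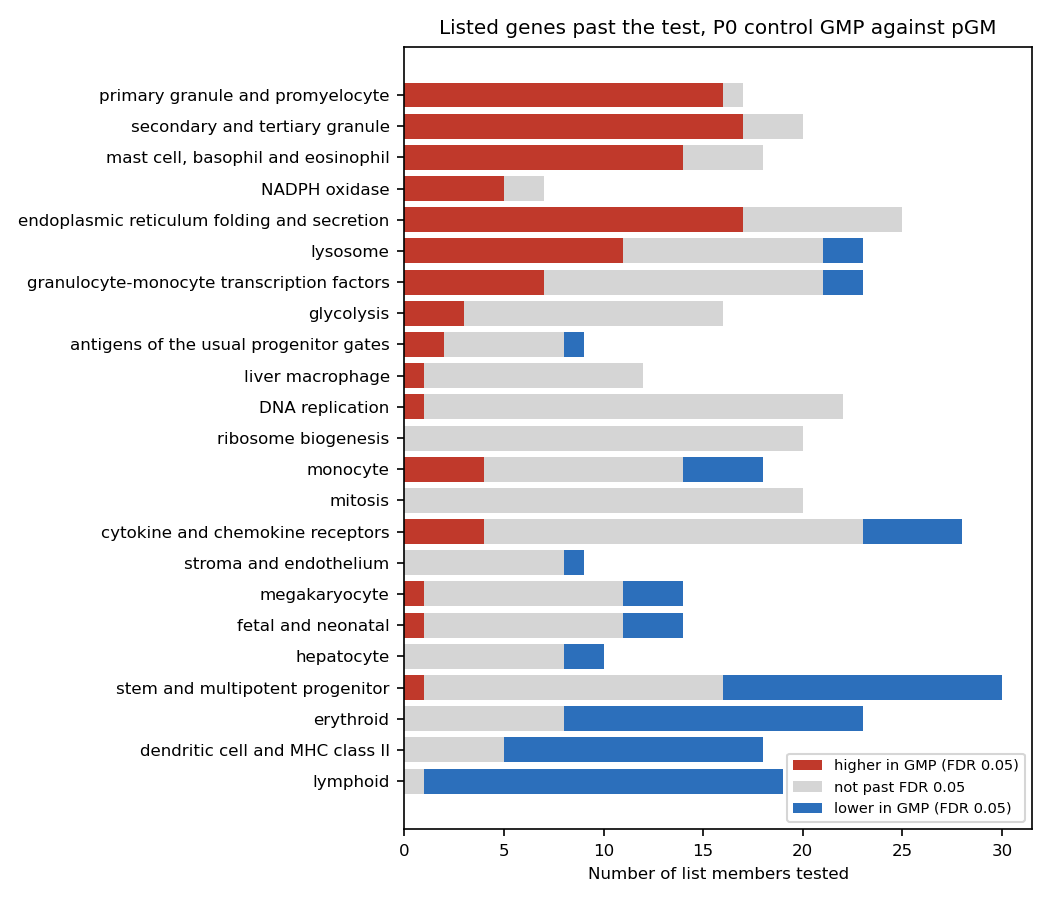
Members of 23 gene lists past FDR 0.05 between P0 control GMP and pGM, as the number of genes tested per list, with genes higher in GMP in red, lower in blue and the rest in grey. Both neutrophil granule lists and the mast cell, basophil and eosinophil list are mostly red, with 16 of 17, 17 of 20 and 14 of 18 genes, while the lymphoid list is blue in 18 of 19.

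Genes of the primary granules and the promyelocyte were higher in GMP almost throughout the list. Of 17 genes tested 16 rose, with a median log2 fold change of 2.24, against -0.03 over all genes tested and 6.43% of them called higher. Ctsc, which encodes the protease that activates granule serine proteases, was the member that did not pass, at a log2 fold change of 0.27 (adjusted p = 0.32). Together the 17 genes took 6.24%, 11%, 7.76% and 9.38% of scaled counts in GMP 2, 3, 4 and 5, against 1.70%, 1.70% and 2.48% in pGM 2, 3 and 5. Between 14 and 16 members stayed called when any 1 of the 7 libraries was left out.

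Elane, which encodes neutrophil elastase (chr10:79886247-79888215 on GRCm38), stood at 4741, 18235, 9046 and 12738 CPM in GMP 2, 3, 4 and 5, against 106, 229.9 and 699 CPM in pGM 2, 3 and 5. The groups did not overlap, and the log2 fold change was 5.02 (SE 0.97, adjusted p = 0.00021). Mpo, the gene of myeloperoxidase (chr11:87793581-87804413), averaged 49894 ± 10361 CPM in GMP and 12101 ± 3625 CPM in pGM (SD, n = 4 and 3). Its lowest GMP library, at 37207 CPM, lay above its highest pGM library, at 16254 CPM. The log2 fold change of Mpo was 2.04 (SE 0.56, adjusted p = 0.0085), and without pGM 3 its adjusted p was 0.063. Prtn3 and Ctsg, the genes of proteinase 3 and cathepsin G, rose by 1.93 and 2.52 on the log2 scale. Ms4a3, a marker of granulocyte-monocyte commitment, stood at 981 to 1806 CPM in GMP and 11.9 to 80.1 CPM in pGM, a log2 fold change of 5.31. These 5 genes and others chosen for their textbook role outside the naming rule were chosen after their values were seen, as stated with the methods.

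Fcnb, which encodes ficolin B, a lectin of immature neutrophils, had the largest change of this list. It stood at 61.9, 1607, 477 and 1097 CPM in GMP 2, 3, 4 and 5, against 0.501, 3.41 and 13 CPM in pGM 2, 3 and 5, with a log2 fold change of 7.18 (SE 1.15, adjusted p = 1.3e-05). All 4 GMP libraries lay above all 3 pGM libraries, and GMP 2 was the lowest of the 4. Without it the log2 fold change of Fcnb was 7.58, and without pGM 5, the highest of pGM, it was 8.71. Prss57, the gene of a further granule protease, stood at 329 to 601 CPM in GMP and 41.3 to 85.6 CPM in pGM. Gstm1, which encodes a glutathione transferase, stood at 526 to 1057 CPM in GMP and 71.7 to 147 CPM in pGM. Srgn, the gene of the granule proteoglycan serglycin, stood at 2714 to 3812 CPM in GMP and 756 to 1151 CPM in pGM.

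Genes of the secondary and tertiary granules changed by more, and GMP libraries differed more among themselves. Of 20 genes tested 17 rose, with a median log2 fold change of 6.04, against 6.43% of all genes tested called higher. Padi4, Mmp8 and Mmp25 did not pass, with log2 fold changes of -0.02, 0.97 and 2.88. The summed level of the list was 0.216%, 2.83%, 0.933% and 2.07% of scaled counts in GMP 2, 3, 4 and 5, and 0.0310%, 0.0265% and 0.0683% in pGM 2, 3 and 5. GMP 2 was the lowest of GMP, yet above every pGM library. From 16 to 18 members were called when any 1 library was left out. Without GMP 2 there were 18 higher, with a median log2 fold change of 6.43.

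Ngp, which encodes neutrophilic granule protein (chr9:110419747-110423012), stood at 359, 9665, 2677 and 6505 CPM in GMP 2, 3, 4 and 5, against 9.14, 9.13 and 167 CPM in pGM 2, 3 and 5. The log2 fold change was 6.28 (SE 1.51, adjusted p = 0.0026), and GMP 2 lay closer to pGM 5 than to GMP 3. Without GMP 2 the log2 fold change of Ngp was 6.68, and those of Ltf and S100a9 were 6.35 and 7.07. Leaving out pGM 5 moved them by more, to 9.04 for Ngp and from 5.95 to 8.41 for Ltf. Ltf, the gene of lactoferrin, ran in the same order of GMP libraries, at 72.1, 2258, 579 and 1133 CPM in GMP 2, 3, 4 and 5, against 4.26, 1.64 and 43.5 CPM in pGM 2, 3 and 5. Camp, the gene of the cathelicidin peptide, stood at 182 to 2314 CPM in GMP and 1.13 to 24.1 CPM in pGM. S100a8, a subunit of calprotectin, stood at 410.4 to 4624 CPM in GMP and 4.38 to 58.6 CPM in pGM, with a log2 fold change of 6.82 (SE 1.27, adjusted p = 0.00013). S100a9, its partner subunit, stood at 200.1, 3185, 1106 and 2831 CPM in GMP 2, 3, 4 and 5, against 3.32, 6.07 and 44.3 CPM in pGM 2, 3 and 5, again without overlap and with GMP 2 the lowest of GMP. Lcn2, the gene of neutrophil gelatinase-associated lipocalin, rose by 6.13 on the log2 scale. Pglyrp1, which encodes a peptidoglycan recognition protein, had the smallest p of the list (log2 fold change 4.63, SE 0.45, adjusted p = 1.8e-09) and stood at 400.5 to 1408 CPM in GMP and 24.6 to 58.8 CPM in pGM.

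The 3 upstream windows below come from granule genes with matches to short motifs of the C/EBP and PU.1 families and of GATA factors. They are RefSeq sequence of GRCm38.p6, 5′ to 3′ on the gene's strand, up to 250 bases before the gene's start and without bases inside the annotated gene. Capitals mark matches on either strand to the C/EBP motif TTGCNNAA and to 2 shorter ones. The motif searched for PU.1 was GAGGAA, the core that ETS family factors such as PU.1 bind. The motif searched for GATA factors was AGATAA. Windows of other granule genes, such as Gstm1, Srgn and Ms4a3, held no match to any of these motifs. In Fcnb both matches are C/EBP, in S100a9 the first is C/EBP and the second GATA, and in Ltf they are PU.1, C/EBP and GATA in that order.
Fcnb, chr2:28084886-28085128, minus strand: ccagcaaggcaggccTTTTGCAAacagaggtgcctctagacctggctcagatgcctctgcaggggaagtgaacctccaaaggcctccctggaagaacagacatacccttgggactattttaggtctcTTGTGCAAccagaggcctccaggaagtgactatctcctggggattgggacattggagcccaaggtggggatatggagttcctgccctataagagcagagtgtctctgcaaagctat
S100a9, chr3:90695722-90695971, minus strand: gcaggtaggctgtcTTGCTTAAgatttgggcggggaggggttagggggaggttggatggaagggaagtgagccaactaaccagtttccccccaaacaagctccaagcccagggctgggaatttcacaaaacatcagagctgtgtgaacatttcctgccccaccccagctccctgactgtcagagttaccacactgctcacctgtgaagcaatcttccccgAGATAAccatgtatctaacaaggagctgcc
Ltf, chr9:111019042-111019270, plus strand: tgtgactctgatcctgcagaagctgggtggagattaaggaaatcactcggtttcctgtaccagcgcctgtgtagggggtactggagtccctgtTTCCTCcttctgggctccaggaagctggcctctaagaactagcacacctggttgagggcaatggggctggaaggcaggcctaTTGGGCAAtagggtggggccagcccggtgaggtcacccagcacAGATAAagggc

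Such a match is a description of letters and was not tested as a binding site. Over all 27025 RefSeq promoters of 250 bases the C/EBP motif was held by 9.55%, the PU.1 motif by 23.1% and the GATA motif by 10.3%. Of the secondary and tertiary granule genes 17 of 20 had a promoter in the table, and 29.4%, 58.8% and 29.4% of these held the 3 motifs. Of the primary granule genes 14 of 17 had one, and 14.3% held the C/EBP, 50% the PU.1 and 0% the GATA motif. In lists that did not rise as a whole the PU.1 share varied. It was 50% for megakaryocyte, 40% for lymphoid, 28.6% for dendritic, 26.3% for erythroid and 20% for stem cell promoters. For the megakaryocyte, lymphoid and dendritic lists fewer than 80% of genes had a promoter in the table (71.4%, 78.9% and 77.8%). Their shares are therefore uncertain, and the megakaryocyte share rests on 5 of 10 promoters. Among all called genes fewer than 80% had a promoter in the table (77.4% of those higher and 75% of those lower in GMP). Of all genes tested 72.9% had one. Motif shares over the called genes were taken as void under that limit and are not given.

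**Figure D2:**
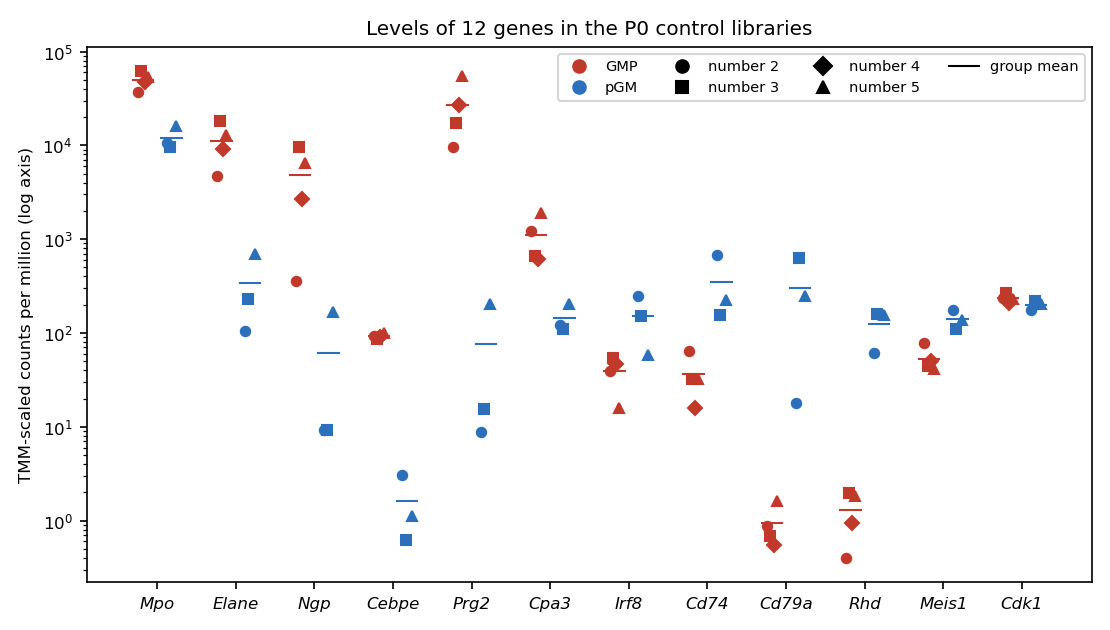
Levels of 12 genes in the 4 GMP (red) and 3 pGM (blue) control libraries of P0, in TMM-scaled CPM on a log axis, with the shape giving the number in the identifier and the line the group mean. Cebpe separates the groups by more than its spread within either, GMP 2 is lowest for Elane, Ngp and Prg2 among GMP, and Cdk1 overlaps.

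Among 23 transcription factors of the granulocyte-monocyte branch 7 rose and 2 fell, against 6.43% and 7.50% of all genes tested. The median log2 fold change of these factors was 0.33. Without pGM 3 the calls were 4 higher and 1 lower, and 1 was lower without GMP 2, GMP 4, GMP 5 or pGM 2 as well. Cebpe, the C/EBP factor that drives secondary granule genes (chr14:54710360-54712174), stood at 92.3, 86.9, 90.2 and 101 CPM in GMP 2, 3, 4 and 5, against 3.07, 0.614 and 1.13 CPM in pGM 2, 3 and 5. The groups did not overlap, and unlike the late granule genes Cebpe was as high in GMP 2 as in the other GMP libraries. Its log2 fold change was 5.82 (SE 0.77, adjusted p = 5.1e-07).

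Gfi1, a repressor needed for neutrophil fate, stood at 15.2 to 19.1 CPM in GMP and 3.0 to 5.42 CPM in pGM (log2 fold change 1.87, adjusted p = 8.9e-06). Cebpa, the C/EBP factor needed to form GMP, stood at 45.1, 23.3, 28.5 and 37.5 CPM in GMP 2, 3, 4 and 5, against 13.9, 7.98 and 17.1 CPM in pGM 2, 3 and 5. Its log2 fold change was 1.37 (SE 0.35, adjusted p = 0.0051), with an adjusted p of 0.073 without pGM 3. Myb, a factor of proliferating progenitors, was higher in GMP, at 198 to 246 CPM against 105 to 145 CPM in pGM. Klf5, a zinc finger factor, rose by 2.51 on the log2 scale at low level, with 1.43 to 6.23 CPM in GMP and 0.188 to 0.954 CPM in pGM. Spi1, the gene of PU.1, overlapped at 20.7 to 27.6 CPM in GMP and 16.4 to 24.7 CPM in pGM (log2 fold change 0.28, SE 0.21, adjusted p = 0.49). Rara, the retinoic acid receptor alpha, fell by 1.37 on the log2 scale.

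Irf8, the factor of monocyte and dendritic fate (chr8:120736358-120756694), stood at 39.4, 54.3, 46.6 and 15.7 CPM in GMP 2, 3, 4 and 5, against 245, 152 and 58.2 CPM in pGM 2, 3 and 5. Number 5 was the lowest in both populations, and the groups did not overlap. The log2 fold change was -1.96 (SE 0.68, adjusted p = 0.045). That call was lost when any 1 of 6 libraries was left out, with an adjusted p of up to 0.27.

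The 12 largest rises by the naming rule were Tpsab1, Tpsb2, Epx, Prg2, Ear6, Ear2, Ear1, Mcpt4, Cma1, Prg3, Alox15 and Tph1, genes known from mast cells, basophils or eosinophils, and 14 of 18 genes on the list of these cells rose. The median log2 fold change of the list was 5.16, with Gzmb, Il1rl1, Ccr3 and Mitf not past the test at log2 fold changes of 3.42, 1.79, 2.23 and 0.82. The list took 2.08%, 2.61%, 3.53% and 8.00% of scaled counts in GMP 2, 3, 4 and 5, against 0.0343%, 0.0366% and 0.0864% in pGM 2, 3 and 5. Number 5 was the highest in both populations. From 12 to 14 members were called when any 1 library was left out, and 17 with the replicate block. Over all genes tested 6.43% were called higher.

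Prg2, the gene of eosinophil major basic protein (chr2:84980461-84983632), stood at 9665, 17386, 26640.3 and 54268 CPM in GMP 2, 3, 4 and 5, against 8.89, 15.6 and 205 CPM in pGM 2, 3 and 5. Its log2 fold change was 8.46 (SE 1.68, adjusted p = 0.00028). No library overlapped, which the naming rule for the largest rises required. Epx, the gene of eosinophil peroxidase, kept the same order of libraries, at 693, 1724, 3350.1 and 5498 CPM in GMP 2, 3, 4 and 5, against 0.751, 1.30 and 18.6 CPM in pGM 2, 3 and 5. Without pGM 5 the log2 fold changes of Prg2 and Epx were 11.10 and 11.42, against 8.46 and 8.69 with all libraries. Ear1, Ear2 and Ear6, eosinophil-associated ribonucleases, rose by 8.18, 8.19 and 8.40 on the log2 scale. They are close copies of each other, as are Tpsab1 and Tpsb2, so counts could be split between them and single values are uncertain. Prg3, a homolog of major basic protein, rose by 8.10, and Alox15, a lipoxygenase of eosinophils, by 7.50.

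The mast cell proteases did not follow the order of the eosinophil genes. Tpsb2, which encodes a tryptase, stood at 4637, 1200.3, 857 and 8794 CPM in GMP 2, 3, 4 and 5, against 3.44, 2.25 and 16.8 CPM in pGM 2, 3 and 5. Cma1, the gene of a chymase, was likewise highest in GMP 5 and GMP 2, at 1730.3 and 1446 CPM, against 286 and 378 CPM in GMP 4 and GMP 3 and 0.689 to 8.59 CPM in pGM. Mcpt4, a further chymase, was highest in GMP 2, at 127 CPM, with 21.1 to 47.4 CPM in the other GMP and at most 0.301 CPM in pGM. Tpsab1, the other tryptase (chr17:25343245-25345562), had 5217 counts over the 4 GMP libraries and 3 counts over the 3 pGM libraries, a ratio of scaled levels of 1529.9 (95% counting interval 523 to 7421).

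Tph1, the enzyme of serotonin synthesis that mast cells use, stood at 31.9, 20.8, 23.2 and 93.6 CPM in GMP 2, 3, 4 and 5, against 0.0626, 0.341 and 0.301 CPM in pGM 2, 3 and 5. Mcpt8, a protease of basophils, stood at 200.4 to 510.4 CPM in GMP and 14 to 28.6 CPM in pGM, with a log2 fold change of 3.84 (SE 0.70, adjusted p = 8.4e-05). Cpa3, mast cell carboxypeptidase, averaged 1099.6 ± 599.8 CPM in GMP and 145 ± 49.9 CPM in pGM (SD, n = 4 and 3). Ms4a2, the beta chain of the IgE receptor, stood at 207 to 291 CPM in GMP and 14 to 38.9 CPM in pGM. HPC of control P0 livers held 98.5 to 272 CPM of Cpa3 and 460.4 to 1476 CPM of Tpsb2, so for Tpsb2 the pGM libraries were below both GMP and HPC.

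The next windows belong to Ms4a2 and Cpa3, whose levels were just given, and are read as above. Their capitals mark the GATA motif, which stands 3 times before Ms4a2 and once before Cpa3. Of the mast cell, basophil and eosinophil genes 15 of 18 had a promoter in the table, and 46.7% of these held it, against 10.3% of all promoters.
Ms4a2, chr19:11623720-11623969, minus strand: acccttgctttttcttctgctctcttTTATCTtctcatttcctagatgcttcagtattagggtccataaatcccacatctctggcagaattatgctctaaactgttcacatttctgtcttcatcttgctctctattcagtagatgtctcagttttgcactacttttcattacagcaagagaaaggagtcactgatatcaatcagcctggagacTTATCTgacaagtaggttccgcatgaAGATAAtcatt
Cpa3, chr3:20242182-20242431, minus strand: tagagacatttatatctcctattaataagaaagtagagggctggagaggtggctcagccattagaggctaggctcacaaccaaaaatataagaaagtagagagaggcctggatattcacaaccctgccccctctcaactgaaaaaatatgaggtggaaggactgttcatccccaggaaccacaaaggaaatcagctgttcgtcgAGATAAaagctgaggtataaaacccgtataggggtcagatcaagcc

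Gata2, the GATA factor of mast cells and of stem cells (chr6:88193891-88207032), was the stem cell factor that was higher in GMP. It stood at 143, 79.8, 100 and 117 CPM in GMP 2, 3, 4 and 5, against 50, 31.2 and 51.1 CPM in pGM 2, 3 and 5, without overlap. Its log2 fold change was 1.32 (SE 0.29, adjusted p = 0.0012). Gata1, the GATA factor of red cells, platelets, mast cells and eosinophils, overlapped at 107 to 175 CPM in GMP and 98.1 to 137 CPM in pGM (log2 fold change 0.17, SE 0.67, adjusted p = 0.94).

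**Figure D3:**
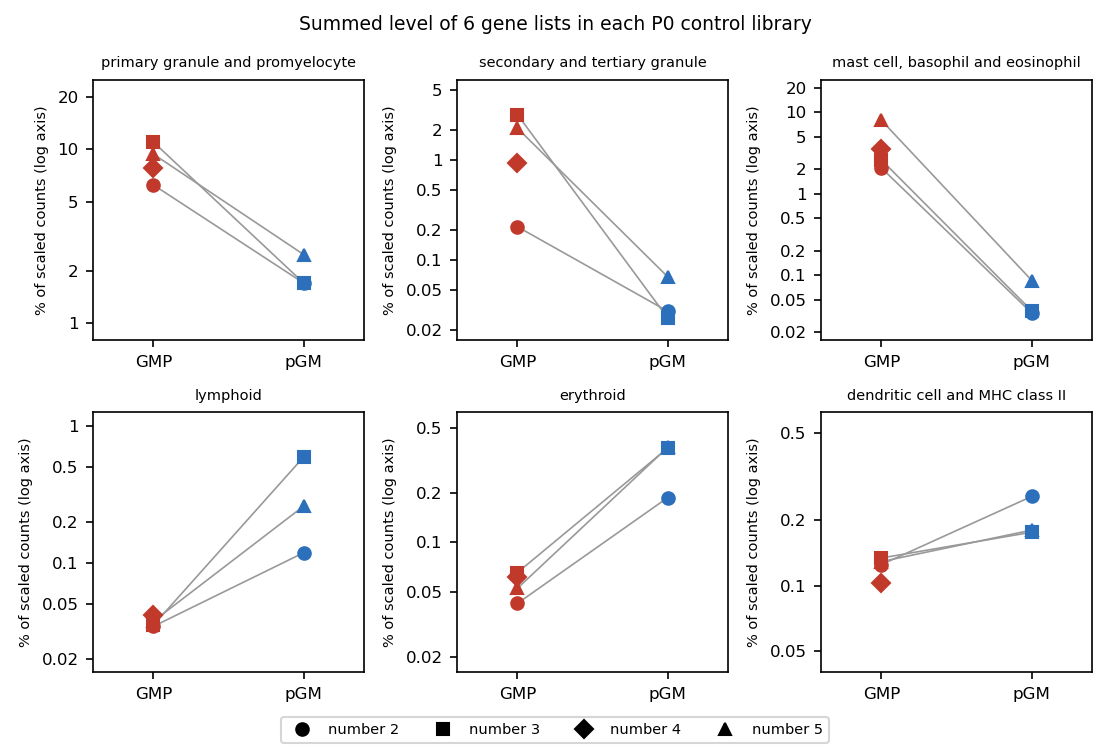
Summed level of 6 gene lists in each P0 control library, as % of scaled counts on a log axis, with GMP left of pGM, shapes for the number in the identifier and lines that join libraries of the same number. Every GMP library lies above every pGM library for the granule and the mast cell, basophil and eosinophil lists and below for the lymphoid, erythroid and dendritic lists, with GMP 2 apart from the other GMP for the secondary and tertiary granule list.

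Lymphoid genes fell. Of 19 genes tested 18 fell, against 7.50% of all genes tested, and the median log2 fold change of the list was -3.92. From 16 to 19 were called when any 1 library was left out, and 17 with the replicate block. The list took 0.0346%, 0.0353%, 0.0417% and 0.0377% of scaled counts in GMP 2, 3, 4 and 5, against 0.119%, 0.593% and 0.260% in pGM 2, 3 and 5. All GMP libraries lay below all pGM libraries, and pGM 3 was the highest. HPC of control P0 livers held 0.102% to 0.131%, below pGM 3 and pGM 5.

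The early B cell genes carried the largest falls. Ebf1, the factor that sets B cell fate (chr11:44617317-45008091), stood at 0.557, 0.778, 0 and 0.181 CPM in GMP 2, 3, 4 and 5, against 11.6, 352 and 107 CPM in pGM 2, 3 and 5. Its log2 fold change was -8.71 (SE 1.15, adjusted p = 4.9e-07). Cd79a, a chain of the B cell receptor, stood at 0.876, 0.691, 0.544 and 1.63 CPM in GMP 2, 3, 4 and 5, against 18.1, 631 and 248 CPM in pGM 2, 3 and 5. For both genes pGM 3 was highest and pGM 2 lowest of pGM. Every pGM library was above every GMP library, which the naming rule for the largest falls required. Rag1, which recombines receptor genes, and Igll1 and Vpreb1, the surrogate light chain, fell by 8.68, 7.84 and 7.14 on the log2 scale. Lef1, a transcription factor of early lymphocytes, had 2 counts over the 4 GMP libraries and 1916 over the 3 pGM libraries, a ratio of pGM over GMP of 1089 (95% counting interval 301 to 8998). Blnk and Pou2af1, B cell signalling and transcription partners, fell by 7.22 and fell by 7.93 on the log2 scale.

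Lymphoid genes not specific to B cells fell as well. Ccr9, a receptor of thymus-seeding progenitors, was even among pGM libraries, at 24.0 to 39.2 CPM, against 0.432 to 0.955 CPM in GMP. Il7r, the interleukin 7 receptor of lymphoid progenitors, stood at 1.35, 3.11, 2.38 and 12.3 CPM in GMP 2, 3, 4 and 5, against 15.6, 106 and 59.4 CPM in pGM 2, 3 and 5. Flt3, the receptor of multipotent and lymphoid progenitors, fell by 2.02 on the log2 scale (adjusted p = 0.012, and 0.054 without GMP 5). It stood at 15.5 to 66.0 CPM in GMP, where GMP 4 was highest, and at 85.6 to 154 CPM in pGM. Dntt, which adds bases at receptor joints, did not pass, with 2.39 to 7.13 CPM in GMP and 4.14 to 16.1 CPM in pGM (adjusted p = 0.14).

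Erythroid genes were lower in GMP for 15 of 23 genes tested, against 7.50% of all genes tested. The median log2 fold change of the list was -2.10. The list took 0.0423%, 0.0653%, 0.0610% and 0.0523% of scaled counts in GMP 2, 3, 4 and 5, against 0.188%, 0.378% and 0.382% in pGM 2, 3 and 5. Rhd, a subunit of the Rhesus complex of the red cell membrane (chr4:134864536-134896172), stood at 0.398, 1.99, 0.951 and 1.81 CPM in GMP 2, 3, 4 and 5, against 60.5, 159.6 and 154 CPM in pGM 2, 3 and 5. Its log2 fold change was -6.61 (SE 0.80, adjusted p = 1.1e-07), without overlap. Rhag, its partner, fell by 6.49, and Aqp1, a water channel of red cells, fell by 7.27.

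Car2, a carbonic anhydrase of erythroid progenitors, stood at 61.3 to 82.2 CPM in GMP and 655 to 1776 CPM in pGM (log2 fold change -4.17, adjusted p = 3.2e-08). Hba-a1 and Hbb-bs, adult globin genes of which Hba-a1 has a near-identical copy, had log2 fold changes of -2.0 and -1.51 that did not pass the test. Klf1 and Epor, an erythroid factor and the erythropoietin receptor, did not pass either, with log2 fold changes of -1.59 and -1.67. From 12 to 14 members were called when any 1 library was left out, and 21 with the replicate block.

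The window before Rhd is shown because this gene had one of the smallest p of the erythroid list and a GATA motif near its start. Its first match is PU.1 and its second GATA. Among erythroid genes 19 of 23 had a promoter in the table, and 21.1% of these held the GATA motif.
Rhd, chr4:134864286-134864535, plus strand: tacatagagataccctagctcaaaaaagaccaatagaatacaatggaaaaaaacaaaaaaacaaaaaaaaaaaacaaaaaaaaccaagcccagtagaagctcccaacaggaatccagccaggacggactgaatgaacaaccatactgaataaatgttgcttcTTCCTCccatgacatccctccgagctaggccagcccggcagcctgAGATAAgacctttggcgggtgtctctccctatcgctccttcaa

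Megakaryocyte genes moved little as a list, with 1 of 14 higher, 3 lower and a median log2 fold change of -0.69. Over all genes tested 6.43% were higher and 7.50% lower. With the replicate block 4 of the 14 were higher and 2 lower. Mmrn1, which encodes a platelet adhesion protein, stood at 2.98 to 5.18 CPM in GMP and 27.7 to 91.9 CPM in pGM (log2 fold change -3.70, adjusted p = 3e-07). Selp, the gene of P-selectin, fell by 1.21 and Fli1, a factor of platelet and blood development, rose by 0.47. The calls of Selp, Fli1 and Ppbp, which had 11 counts over the pGM and 0 over the GMP libraries, were lost when single libraries were left out, at adjusted p of up to 0.05, 0.17 and 0.2.

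Dendritic cell genes and MHC class II fell. Of 18 genes tested 13 fell, against 7.50% of all genes tested, and the median log2 fold change of the list was -2.35. From 10 to 13 were called when any 1 library was left out. With the replicate block 10 were called lower. Cd74, the invariant chain of MHC class II, stood at 64.5, 32.4, 15.8 and 32.6 CPM in GMP 2, 3, 4 and 5, against 676, 155 and 224 CPM in pGM 2, 3 and 5. Number 2 was the highest in both populations, the groups did not overlap, and the log2 fold change was -3.28 (SE 0.55, adjusted p = 2.9e-05). HPC held far more, 5743 to 15399 CPM, so Cd74 ran downward over HPC, pGM and GMP. H2-Aa, a class II chain, followed Cd74 with the same log2 fold change, and H2-Ab1, its partner chain, fell by 2.07, or by 1.38 without pGM 2.

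Siglech, a marker of plasmacytoid dendritic cells, had 1 count over the 4 GMP libraries and 473 over the 3 pGM libraries, a ratio of pGM over GMP of 538 (95% counting interval 96.0 to 21281). Irf4, a factor of dendritic and B cells, had 3 counts against 767, a ratio of pGM over GMP of 291 (95% counting interval 99.1 to 1412). Tcf4, which directs plasmacytoid fate, was high in both populations, at 79.7 to 105 CPM in GMP and 195 to 257 CPM in pGM.

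Monocyte genes did not move one way. Of 18 tested 4 rose and 4 fell, against 6.43% and 7.50% of all genes tested. The median log2 fold change of the list was -0.91, and with the replicate block 5 rose and 9 fell. When any 1 library was left out, 1 to 4 were called higher and 1 to 3 lower. Ctss, a lysosomal protease of antigen presenting cells, stood at 7.59 to 21.4 CPM in GMP and 77.2 to 113 CPM in pGM (log2 fold change -2.68, adjusted p = 6.8e-07). Ly6c2, which marks monocytes and their committed progenitors and has a close copy, stood at 97.7, 589, 236 and 231 CPM in GMP 2, 3, 4 and 5, against 25.5, 34.2 and 41.3 CPM in pGM 2, 3 and 5. It rose by 3.10 on the log2 scale (adjusted p = 0.0033) without overlap. Csf1r, the receptor of the macrophage growth factor, did not pass (log2 fold change -0.89, adjusted p = 0.4), but did with the replicate block (0.01). The calls of Sirpa, Psap, Emilin2 and Mpeg1, surface, lysosomal, matrix and pore proteins of monocytes, were each lost without at least 1 of the libraries, at adjusted p of up to 0.051, 0.098, 0.093 and 0.13.

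Stem and multipotent progenitor genes fell in part. Of 30 tested 14 fell and 1, Gata2, rose, against 7.50% and 6.43% of all genes tested. The median log2 fold change of the list was -0.79. Without pGM 2 there were 9 that fell, and with the replicate block 17. Mycn, a MYC family gene, stood at 1.04, 0.691, 0.679 and 0.181 CPM in GMP 2, 3, 4 and 5, against 9.45, 8.86 and 9.34 CPM in pGM 2, 3 and 5. HPC held 28.0 to 42.3 CPM, so the level ran downward over HPC, pGM and GMP. Meis1, the cofactor of Hox proteins and a known target of MLL fusions (chr11:18879817-19018985), stood at 77.9, 44.3, 49.9 and 40.9 CPM in GMP 2, 3, 4 and 5, against 177, 109 and 138 CPM in pGM 2, 3 and 5. Number 2 was the highest in both populations, and the groups did not overlap (log2 fold change -1.41, SE 0.24, adjusted p = 2.9e-05).

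Hoxa10 fell by 2.44 on the log2 scale at low level, with 0.173 to 0.717 CPM in GMP and 2.69 to 2.80 CPM in pGM. Hoxa9, the partner of Meis1 in leukemia, fell by 0.82 (adjusted p = 0.018) at 5.06 to 9.08 CPM in GMP and 8.89 to 16.7 CPM in pGM, which overlap by a small margin. Without pGM 2 its log2 fold change was -0.51, and the highest adjusted p with 1 library left out was 0.28. Erg and Adgrl4, a stem cell factor and an adhesion receptor, fell by 1.23 and 0.96.

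Among 28 cytokine and chemokine receptors 4 rose and 5 fell, against 6.43% and 7.50% of all genes tested. The median of the receptors was -0.04, and with the replicate block 7 rose and 9 fell. Without pGM 2 or without pGM 3 only 2 were called higher. Csf2rb, the beta chain shared by receptors of interleukin 3, interleukin 5 and GM-CSF, stood at 339 to 474 CPM in GMP and 189 to 238 CPM in pGM (log2 fold change 0.99, adjusted p = 0.0048). It has a close copy, Csf2rb2. Ifngr1, an interferon gamma receptor chain, stood at 603 to 1041 CPM in GMP and 277 to 369 CPM in pGM (log2 fold change 1.30, adjusted p = 2.7e-05). Csf3r, the G-CSF receptor, stood at 90.1, 159.7, 119.9 and 139 CPM in GMP 2, 3, 4 and 5, against 91.7, 57.3 and 93.7 CPM in pGM 2, 3 and 5, and just missed the threshold (adjusted p = 0.051). Il10ra and Il17ra, receptors of interleukins 10 and 17, fell by 1.67 and 0.96. Il6st and Il1r1, signalling chains for interleukins 6 and 1, fell by 1.28 and 1.51, with adjusted p of 0.2 without pGM 2 and 0.059 without pGM 3.

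Genes of the secretory apparatus rose as well. Of 25 genes of folding and secretion in the endoplasmic reticulum 17 rose, against 6.43% of all genes tested. The median log2 fold change of the list was 0.95. From 12 to 16 were called when any 1 library was left out, and 21 with the replicate block. P4hb, a disulfide isomerase, stood at 1819, 2435, 2020.4 and 1836 CPM in GMP 2, 3, 4 and 5, against 698, 817 and 651 CPM in pGM 2, 3 and 5. All 4 GMP libraries were more than 2-fold above all 3 pGM libraries. Calr, the chaperone calreticulin, rose by 1.44, Xbp1, the factor of the secretory program, by 1.53, and Hsp90b1, a further chaperone, by 1.11 on the log2 scale.

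Of 23 lysosome genes 11 rose and 2, Ctss and Psap, fell, against 6.43% and 7.50% of all genes tested. Cd63, a membrane protein of azurophil granules and lysosomes, stood at 887 to 1625 CPM in GMP and 52.0 to 146 CPM in pGM (log2 fold change 3.65, SE 0.44, adjusted p = 1.2e-07). Lamp2, a membrane protein of lysosomes, rose by 0.78. Lamp1, another such protein, rose by 0.82 and lost its call without GMP 5 or pGM 2. With the replicate block 12 lysosome genes rose, and 6 were called higher without GMP 3, GMP 5, pGM 3 or pGM 5 and 7 without pGM 2.

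Of 7 subunits of the phagocyte NADPH oxidase 5 rose, against 6.43% of all genes tested. Cybb, its catalytic subunit, stood at 48.9, 437, 256 and 347 CPM in GMP 2, 3, 4 and 5, against 31.5, 31.2 and 39.9 CPM in pGM 2, 3 and 5. GMP 2 lay just above the pGM range (log2 fold change 2.99, SE 0.63, adjusted p = 0.00059), and without it the log2 fold change of Cybb was 3.35. Cyba, its membrane partner, rose by 1.14. Ncf4, a cytosolic subunit, rose by 0.96. Rac2, the GTPase of the complex, rose by 0.63 with overlapping groups and an adjusted p of up to 0.21 when 1 library was left out.

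Of 16 glycolysis genes 3 rose, against 6.43% of all genes tested, and 7 rose with the replicate block. Hk3, the hexokinase of myeloid cells, stood at 75.3 to 177 CPM in GMP and 18.5 to 29.3 CPM in pGM (log2 fold change 2.29, adjusted p = 0.00038). Gpi1, an isomerase of the pathway, rose by 1.08. Aldoa, an aldolase, rose by 0.81 with an adjusted p of up to 0.26 when 1 library was left out.

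Few cell cycle and no ribosome biogenesis genes passed the test, beside 13.9% of all genes tested, and whether these lists differ from that share was not tested. None of 20 mitosis genes passed in edgeR, with 2 at an unadjusted p under 0.05 and 1 called by DESeq2, all lower in GMP, and the median log2 fold change was -0.17. Of the 20 mitosis genes 17 had a negative and 3 a positive log2 fold change. Cdk1, the kinase of mitotic entry, had the highest of the list, 0.23. It stood at 208 to 264 CPM in GMP and 177 to 219 CPM in pGM. Mki67, the proliferation antigen, stood at 49.0 to 69.0 CPM in GMP and 56.7 to 85.2 CPM in pGM. Top2a, the topoisomerase of dividing cells, had a log2 fold change of -0.25 (SE 0.20, adjusted p = 0.53). Of 22 DNA replication genes 1 rose, against 6.43% of all genes tested. It was Cdc45, a helicase component, which rose by 0.54, and its call was lost when single libraries were left out. None of 20 ribosome biogenesis genes passed in edgeR, by DESeq2 or at an unadjusted p under 0.05, and the median was 0.06. Npm1 and Ncl, the main nucleolar proteins, had log2 fold changes of -0.12 (SE 0.18) and 0.02 (SE 0.24).

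Of 14 fetal and neonatal genes 3 fell and 1 rose, against 7.50% and 6.43% of all genes tested, and 5 fell with the replicate block. Hmga2, a chromatin protein of fetal stem cells, stood at 36.1 to 59.0 CPM in GMP and 86.3 to 121 CPM in pGM (log2 fold change -1.17, adjusted p = 0.0052). Cdkn1c and Peg3, imprinted genes, fell by 2.44 and 2.65. The call of Peg3 was lost when single libraries were left out, at an adjusted p of up to 0.1. Gpc3, an oncofetal glypican, rose by 1.22, with adjusted p of up to 0.072 without pGM 2 or pGM 3. Lin28b, the regulator of fetal blood formation, overlapped at 12.3 to 21.1 CPM in GMP and 18 to 23.1 CPM in pGM (log2 fold change -0.21, SE 0.31, adjusted p = 0.8).

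Markers of other cells of the liver were low in both groups. The summed level of 5 hepatocyte markers was 23.9 to 33.3 CPM in GMP and 21.6 to 41.7 CPM in pGM. Of 10 hepatocyte genes tested 2 fell, against 7.50% of all genes tested. Alb, serum albumin, stood at 0.272 to 1.51 CPM in GMP and 1.31 to 6.68 CPM in pGM. Apoa1, an apolipoprotein, stood at 0.408 to 1.63 CPM in GMP and 1.69 to 8.45 CPM in pGM. With the replicate block neither passed (adjusted p = 0.077 and 0.083). Markers of liver macrophages (5 genes) summed to 4.07 to 36.4 CPM in GMP and 12.4 to 39.7 CPM in pGM, highest with number 3 in both. Adgre1 (F4/80), the macrophage list's called gene, which eosinophils also express, rose by 2.24 (adjusted p = 0.0071, and 0.063 without pGM 3). Stromal and endothelial markers summed to 107 to 135 CPM in GMP and 128 to 148 CPM in pGM, with Col1a1 at 0 in all 7 libraries and Col1a2 at 0 in GMP. Emcn, an endothelial sialomucin, fell by 2.21 on the log2 scale.

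The sets that fell hold markers of other progenitors that a pGM sort may contain. Summed levels of lymphoid and dendritic markers separated the groups, and those of erythroid markers did not. Erythroid markers (7 genes) summed to 159 to 308 CPM in GMP and 286 to 770.5 CPM in pGM, with 1 called lower. Megakaryocyte markers (5 genes) were higher in GMP, at 68.6 to 86.7 CPM against 48.4 to 62.9 CPM in pGM, with 0 called. Lymphoid markers (6 genes) summed to 5.25 to 20.5 CPM in GMP and 57.8 to 1192 CPM in pGM. Dendritic markers (7 genes) summed to 31.3 to 120.3 CPM in GMP and 277 to 1041 CPM in pGM. The mast cell, basophil and eosinophil markers (7 genes), a set that rose, summed to 17507 to 74377 CPM in GMP and 169 to 557 CPM in pGM. The part that mixed cells play in the fold changes was not tested.

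The step of P0 MLL-ENL mice was read in other libraries of the same age. These carry numbers 2 to 5 as well, and the labels do not say what a number stands for. Whether they are independent of the control libraries with the same number was not tested. There 2803 genes passed (18.8%), 1325 higher and 1478 lower in GMP. Of the 958 genes higher in GMP of newborn controls, 953 (99.5%) had the same sign in the MLL-ENL libraries, and 816 were called higher there, which is 85.2% of the control calls and 61.6% of the MLL-ENL calls. Of the 1118 lower, 1104 (98.7%) had the same sign and 822 were called lower, 73.5% of the control calls and 55.6% of the MLL-ENL calls. No gene was called in opposite directions.

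**Figure D4:**
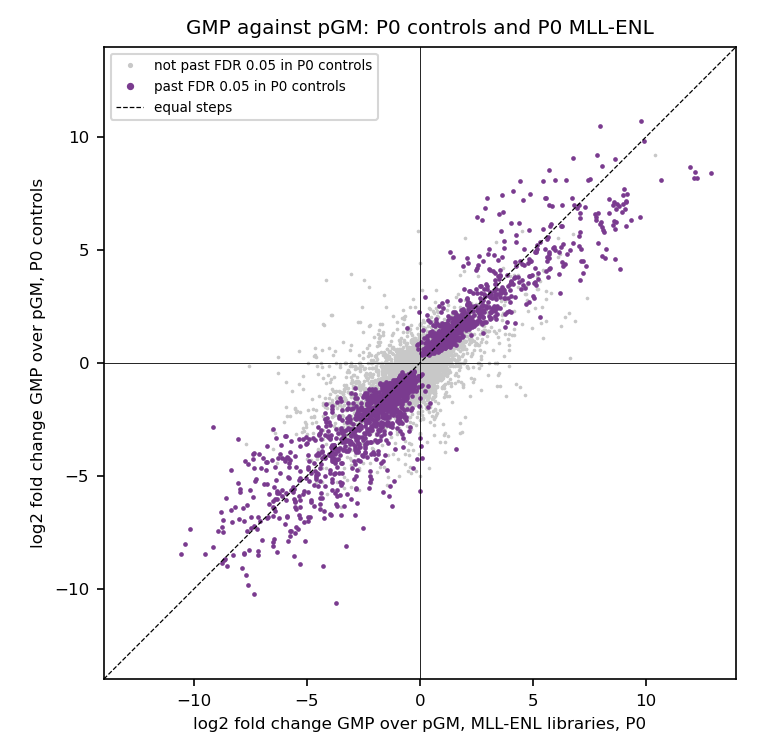
Log2 fold change of GMP over pGM for each gene tested, in P0 MLL-ENL libraries (horizontal axis) and P0 controls (vertical axis), with genes past FDR 0.05 in the controls in purple and the dashed line at equal steps. Of the 958 genes higher in control GMP 953 lie right of 0, and of the 1118 lower 1104 lie left of it.

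Counts of list members called in MLL-ENL mice are given next, as values of these libraries alone. In MLL-ENL libraries 16 of 17 primary granule, 19 of 20 secondary and tertiary granule and 17 of 18 mast cell, basophil and eosinophil genes rose. There 18 lymphoid genes fell and 1 rose, and 21 of 23 erythroid genes fell. Of all 14899 genes tested 1325 rose and 1478 fell in these libraries. Prg2 averaged 57958 ± 41887 CPM in GMP and 12.4 ± 6.87 CPM in pGM of MLL-ENL mice (SD, n = 4 each). Meis1 averaged 139 ± 32.0 CPM in GMP and 314 ± 32.1 CPM in pGM of MLL-ENL mice, against 53.3 ± 16.8 CPM in GMP and 141 ± 34.5 CPM in pGM of controls (SD, n = 4 and 3 in controls). The step of Meis1 was -1.18 in MLL-ENL and -1.41 in control mice on the log2 scale. When the difference between the steps of MLL-ENL and control mice was itself tested, edgeR called 0 genes (0%). In edgeR 372 of 14899 genes had an unadjusted p under 0.05, fewer than chance alone would give at that cut. DESeq2 called 4.

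The step of 10 week controls was read in libraries of bone marrow, which share no number with those of P0. There 2343 genes passed (15.7%), 858 higher and 1485 lower in GMP. Of the 958 genes higher in newborn GMP, 842 (87.9%) had the same sign at 10 weeks, 481 were called higher there (50.2% of the P0 and 56.1% of the 10 week calls) and 7 were called lower. Of the 1118 lower in newborn GMP, 1059 (94.7%) had the same sign, 650 were called lower (58.1% and 43.8%) and 2 were called higher.

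**Figure D5:**
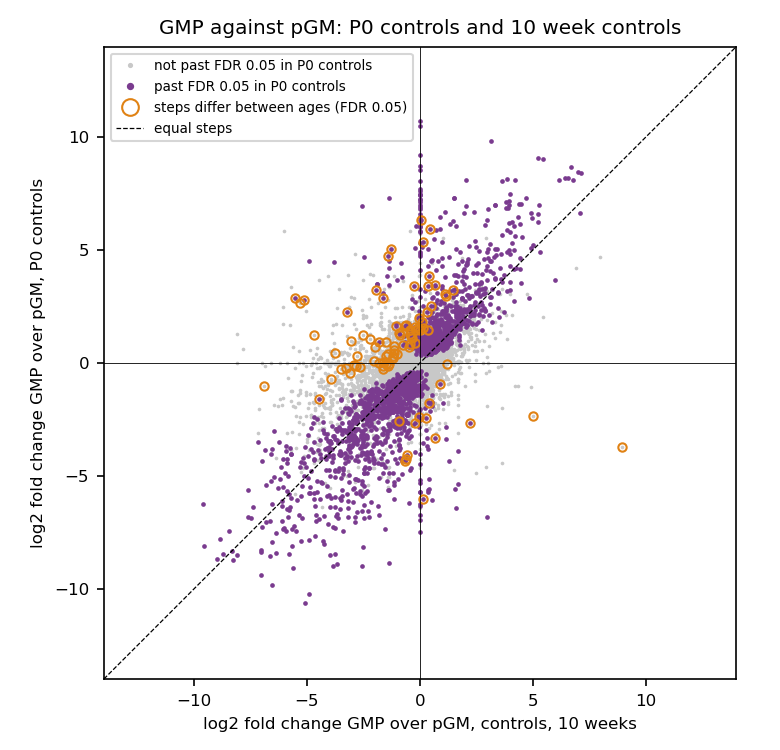
Log2 fold change of GMP over pGM for each gene tested, in 10 week controls (horizontal axis) and P0 controls (vertical axis), with genes past FDR 0.05 at P0 in purple and genes whose step differs between the ages ringed in orange. Genes without counts in either 10 week group stand at 0 on the horizontal axis, and of the 91 ringed genes 76 lie above the dashed line of equal steps.

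The difference between the steps at P0 and 10 weeks was tested for each gene. It passed for 76 genes whose step was higher at P0 (0.510% of genes tested) and for 15 whose step was lower (0.101%). With the replicate block 195 and 57 genes passed, 252 in all against 91. Without pGM 3 of P0 the count was 38, and without GMP 5 of P0 it was 51. Age, tissue (liver against bone marrow) and library set differ together between these groups and cannot be told apart.

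Dntt, which adds bases at receptor joints in lymphocytes (chr19:41029275-41059525), had the smallest p of the named differences. It averaged 4.80 ± 2.25 CPM in GMP and 9.73 ± 6.01 CPM in pGM at P0 (SD, n = 4 and 3), and 5.95 ± 3.66 CPM in GMP and 718 ± 199.7 CPM in pGM at 10 weeks (SD, n = 4 each). The GMP levels overlapped between the ages and the pGM levels did not, and the difference of the steps was 5.89 on the log2 scale (SE 0.64, adjusted p = 2.7e-07).

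Gata2 was higher in GMP at P0, with a step of 1.32, and lower at 10 weeks, with a step of -0.91, a difference of 2.23 (SE 0.40, adjusted p = 0.0018). At 10 weeks Gata2 averaged 35.0 ± 16.7 CPM in GMP and 65.8 ± 13.3 CPM in pGM. Lat, an adaptor of mast cells, platelets and T cells, averaged 25.9 ± 5.50 CPM in GMP and 27.3 ± 8.48 CPM in pGM at P0, against 5.46 ± 2.52 CPM in GMP and 41.4 ± 5.15 CPM in pGM at 10 weeks.

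Further genes had a higher step at P0. Cyp11a1, a steroid enzyme that mast cells and basophils also express, averaged 163 ± 35.3 CPM in GMP and 11.2 ± 1.67 CPM in pGM at P0, and 40.6 ± 29.1 CPM in GMP and 30.9 ± 6.12 CPM in pGM at 10 weeks. Chil1, a chitinase-like protein of neutrophil granules, averaged 86.3 ± 78.5 CPM in newborn GMP, where GMP 2 held 4.94 CPM, and 0.414 ± 0.779 CPM in 10 week GMP. Fgr, a kinase of mature myeloid cells, and Syne1, a nuclear envelope protein, had differences of 4.55 and 3.05 on the log2 scale. Pla2g7, the gene of a platelet-activating factor hydrolase, had the largest among genes past the level limit of the naming rule, at 6.37 (SE 1.39, adjusted p = 0.015). The call of Pla2g7 was lost without GMP 5, pGM 2 or pGM 5 of P0 or pGM 88 of 10 weeks, and that of Chil1 without any 1 of 10 libraries and by DESeq2.

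Among genes with a lower step at P0 that passed the level limit of the naming rule, Arl5c, a small GTPase, had the largest difference, at -3.64 (SE 0.64, adjusted p = 0.0015). It stood at 2.33 to 4.25 CPM in newborn GMP and 8.20, 121 and 45.6 CPM in pGM 2, 3 and 5, the order of the B cell genes. Tifa, an adaptor of innate signalling, had the same order in pGM, at 68.1, 410.1 and 157 CPM, with a difference of -2.44. Hebp1 and Cpox, a heme-binding protein and an enzyme of heme synthesis, had differences of -2.74 and -2.18, and Pld4, a nuclease of plasmacytoid and B cells, -2.33. Fam234b had a difference of -1.65 and Msantd3 one of -1.23. The calls of Fam234b and Msantd3 were lost without any 1 of 12 libraries each. The call of Pld4 was lost without GMP 4, GMP 5 or pGM 2 of P0 or pGM 80 of 10 weeks, that of Tifa without pGM 3 and that of Cpox without pGM 5 of P0.

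For lists at the 2 ages, the primary granule genes were called higher in GMP in 16 of 17 cases at P0 and also in 16 of 17 at 10 weeks, and none passed edgeR's test of the difference between the steps, with 2 at an unadjusted p under 0.05 and 0 called by DESeq2. Of all 14899 genes tested 958 were higher and 1118 lower in GMP at P0, and 858 were higher and 1485 lower at 10 weeks. The difference of steps passed with the higher step at P0 in 0.510% of genes tested and with the lower in 0.101%. For the secondary and tertiary granule genes 17 of 20 were higher at P0, and at 10 weeks 6 were higher and 1 lower. Lyz2, lysozyme, was the member of that list whose difference passed edgeR's test (2.02, adjusted p = 0.032, and up to 0.15 when 1 library was left out). Of the 20 genes 13 had a difference at an unadjusted p under 0.05 in edgeR. DESeq2 called 2, and all of these had the higher step at P0. The median difference of the list was 3.50 on the log2 scale. Ngp averaged 4801 ± 4115 CPM in GMP and 61.7 ± 91.0 CPM in pGM at P0, and 23.3 ± 37.7 CPM in GMP and 8.39 ± 14.3 CPM in pGM at 10 weeks, with a difference that missed the threshold (adjusted p = 0.28). Elane averaged 11190.1 ± 5722 CPM in newborn GMP and 27799 ± 8741 CPM in 10 week GMP. Mast cell, basophil and eosinophil genes were higher in GMP in 14 of 18 cases at P0 and in 8 of 18 at 10 weeks, and none passed edgeR's test of the difference, with 5 at an unadjusted p under 0.05 and 6 called by DESeq2, all with the higher step at P0. Tpsab1 was at 0 in all 8 libraries of 10 weeks, so the difference of its steps cannot be estimated. For stem and multipotent progenitor genes 14 of 30 fell at P0 and 24 of 30 at 10 weeks. In 3 of them, with Gata2 and Ifitm1, an interferon-induced membrane protein, among these, the difference passed edgeR's test. There were 10 at an unadjusted p under 0.05 and 4 called by DESeq2, all with the higher step at P0.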

How the data were processed

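RNA of sorted progenitors was extracted with Qiagen RNeasy micro plus and amplified with Clontech SMARTer kits, per the labels' protocols. The authors deposited whole-number read counts per gene, not normalized, in a table of the series. The submitters' processing notes name STAR 3.0.4, Subread and featureCounts 1.4.5, and no genome build, annotation or strand setting is given in the sources used here. Of 41388 mouse IDs, 40340 took a symbol and position from GENCODE vM21 on GRCm38, and the 1048 others held 0.155% of counts. Near-identical copies and overlapping genes may share reads, so their single values are uncertain.

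The 47 libraries of the P0 and 10 week set were fitted together in edgeR 4.0.16 (quasi-likelihood F test, TMM scaling, filterByExpr by group, 12 groups, 35 residual degrees of freedom), so the 7 libraries share a spread estimated over all of them. This kept 14899 genes, and p-values were adjusted by Benjamini-Hochberg over all of them at FDR 0.05. Log2 CPM levels use a prior count of 2, while fold changes use edgeR's smaller default, so those of genes near 0 counts in a group are hardly damped. Every fold change is GMP over pGM, and differences of steps are P0 minus 10 weeks or MLL-ENL minus control. Counting intervals of ratios cover counting error at 95% only. Nothing in the labels says that libraries of a group came from separate animals, so p-values measure the spread between these libraries.

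Libraries with the same number deviated together from the group means, so the numbers were taken as pairs: r was 0.49, 0.28 and 0.66 for numbers 2, 3 and 5 over 8330 genes, and the fit with the number as replicate block is given beside counts of list members that it moved most. No 2 libraries agreed within counting noise. Alternatives were DESeq2 1.42.0, RLE scaling, no filter, all 84 libraries, the 4 groups of a contrast alone, the block, the 3 pairs, leaving out each library, and a fit without the HPC and pGM libraries of number 73, added after earlier results of these data were known. The scripts were tested on simulated data.

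The named genes are the 12 largest rises and falls without overlap, up to 6 called genes of each list by smallest p (2 by level where none passed), the usual gate antigens and up to 8 called differences of steps in each direction, the largest by size. Rises, falls and differences had to reach a mean of 4 on the log2 CPM scale in a group, with a gene symbol that is no predicted model. Members and lists were chosen with earlier results of these data known. Chosen after their values were seen, outside this rule, were Mpo, Elane, Prtn3, Ctsg, Ms4a3, Ltf, Camp, Ngp, Spi1, Irf8, Gata1, Gata2, Hoxa9, Flt3, Il7r, Cpa3, Ms4a2, Csf3r, Csf1r, Lin28b, Mki67, S100a9 and Lyz2, and the list members named as not passing. Some genes that these rules name are not reported here.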

Additional observations from a re-analysis of the deposited data

Results flagged for a closer look

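Among 156 genes tested for a GMP library far from the other 3, 6 were picked out, and chance picks about 1 in 20. Tph1 stood at 93.6 CPM in GMP 5, above the other GMP libraries, as did Il7r at 12.3 CPM. Siglech stood at 0.0903 CPM in GMP 5 and at 0 in the other GMP libraries. Igll1 stood at 1.36 CPM in GMP 4, Flt3 at 66.0 CPM in GMP 4 and Slamf1 at 0.955 CPM in GMP 2, each apart from the other 3.

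The step from pGM to GMP differed between P0 and 10 week controls, by edgeR's test of the difference itself, in the following named genes (log2, P0 minus 10 weeks). The step was higher at P0 for Pla2g7 by 6.37 (adjusted p = 0.015), Chil1 by 6.26 (0.032), Dntt by 5.89 (2.7e-07), Fgr by 4.55 (0.0041) and Cyp11a1 by 3.47 (0.001). It was also higher for Syne1 by 3.05 (0.01), Lat by 2.84 (0.001) and Gata2 by 2.23 (0.0018). The difference was negative for Arl5c at -3.64 (0.0015), Hebp1 at -2.74 (0.0014), Tifa at -2.44 (0.012) and Pld4 at -2.33 (0.02). It was negative as well for Cpox at -2.18 (0.015), Fam234b at -1.65 (0.035) and Msantd3 at -1.23 (0.049). The calls of Pla2g7, Chil1, Tifa, Pld4, Cpox, Fam234b and Msantd3 were each lost without at least 1 library, with an adjusted p of up to 0.31 for Tifa, and those of the other genes named here were not. Age, tissue and library set cannot be told apart here.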

How the results depend on the processing

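The count of 2076 genes between GMP and pGM ran from 1355 (without pGM 3) to 2064 (without GMP 2) when 1 library was left out, and no other setting moved it by over 1.5 times: DESeq2 called 2387, all 84 libraries 2423, the 7 libraries alone 1878 and the replicate block, which pairs numbers 2, 3 and 5, 2494. The 91 genes whose step differed between P0 and 10 weeks became 232 by DESeq2, 145 with all 84 libraries and 252 with the replicate block, and the cause was not tested. With 1 library left out this count ran from 38 (without P0 pGM 3) to 112 (without 10 week GMP 76). The count of 0 between the steps of MLL-ENL and control mice stayed at 0 in every edgeR setting, the replicate block included, and DESeq2 called 4. Of the 157 named genes none that was called reversed its direction, while 5 that were not called (Npm1, Ncl, Lat, Msantd3 and Gata1) changed sign when 1 library was left out. The most calls, 16, were lost without pGM 3, a setting with fewer samples. Genes at a few counts per library, such as Siglech and Lef1 in GMP, are limited by depth.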
